A study of Mus musculus with 6 samples.

Results

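The genes described are 10 Kruppel-like factors: Klf2, Klf3, Klf4, Klf5, Klf6, Klf7, Klf9, Klf10, Klf13 and Klf15. They were taken by gene symbol from the deposited count table, in which all 10 were found among 37411 gene rows, and all 10 were among the 16233 genes with enough reads to test. The cells were primary hippocampal neuron cultures from newborn CD-1 IGS mice, kept 16 days in vitro, so that hippocampal glia can be present besides neurons. The DMSO group (libraries 1, 2 and 3) received solvent for 30 min. The forskolin group (libraries 4, 5 and 6) received 50 µM forskolin, an activator of adenylyl cyclase that raises cyclic AMP, for the same time. No genotype, transgene or other agent is named for either group. The labels do not say whether the 3 libraries of a group came from separate cultures, so that p-values measure the spread between these libraries, which may be technical.

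Kruppel-like factors are transcription factors that bind GC-rich and CACCC-containing DNA through zinc fingers at the C-terminal end, which they share with the Sp factors. Outside the fingers they diverge. Some recruit the corepressors CtBP or Sin3, and others recruit acetyltransferases. In neurons the family is best known for setting the capacity for axon growth: Klf4 and Klf9 restrain it and Klf6 and Klf7 promote it. Klf2 and Klf4 are also prominent in endothelial and myeloid cells, and Klf9, Klf13 and Klf15 respond to hormones or metabolic state in various tissues.

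Total counts ran from 28342764 to 47548379 per library, and the 10 genes together took 0.0332 to 0.0372% of them. The mitochondrial ribosomal RNAs mt-Rnr1 and mt-Rnr2 together took 14.0, 23.7 and 19.8% of the counts with DMSO (library 1, 2 and 3 in turn). With forskolin they took 29.6, 33.3 and 26.9% (library 4, 5 and 6). This share was above every control in all 3 treated libraries, and its part in the changes with forskolin described here was not tested. Forskolin library 6 stood apart from forskolin libraries 4 and 5: on the first principal component it scored -44.2, against 66.3 and 73.7 for those and -45.7 to -24.8 for the DMSO libraries. Markers of microglia followed the same division. The summed level of 12 microglia markers was 23.3 to 35.7 CPM (counts relative to library size after TMM scaling) in the DMSO libraries, 246 and 405 CPM in libraries 4 and 5, and 25.6 CPM in library 6. All 12 lay above every DMSO library in library 4, 11 did in library 5 and 2 did in library 6, as did 37.5%, 37.1% and 29.5% of all tested genes, and none of the 12 was at 0 in any library. With all 6 libraries edgeR called 0 of the 12, with 11 showing an unadjusted p under 0.05 (22.3% of all tested genes), whereas 11 were called higher by DESeq2, by limma-voom with library quality weights and by edgeR without library 6. These fits called 4.89%, 21.0% and 16.5% of all tested genes higher. The summed levels of the groups overlapped (exact two-sided permutation test p = 0.2, where the smallest possible is 0.1). The 14 neuron markers were present in every library, with summed levels of 3684 and 3972 CPM in libraries 4 and 5 and 4959 to 6270 CPM in the other four. Of 12 endothelial markers, Cldn5 was at 0 counts in each DMSO library, and the summed level was 27.2 to 48.4 CPM with DMSO and 21.3 to 41.4 CPM with forskolin (exact permutation p = 0.9). Single endothelial markers did not all follow that sum. Of the 12, 8 lay above every DMSO library in library 4, 4 in library 5 and 2 in library 6. Of all tested genes, 37.5%, 37.1% and 29.5% did so. The median log2 ratio of the detected ones to the DMSO mean was 1.02, 1.20 and -0.53 in libraries 4, 5 and 6. That median includes markers with very few reads: only 6 of the 12 had enough to test, and 4 were at 0 in at least 1 library. Pecam1 had 0.375, 0.263 and 0.421 CPM with DMSO and 1.55, 1.97 and 0.508 CPM with forskolin, with no overlap (log2 change 1.92, edgeR adjusted p = 0.132). Egfl7 went the other way without overlap, at 10.7, 14.4 and 11.8 CPM with DMSO and 6.95, 6.99 and 8.48 CPM with forskolin (log2 change -0.72, edgeR adjusted p = 0.112). Cdh5, at 3.87 to 9.09 CPM with DMSO, had 9.60, 1.62 and 2.75 CPM with forskolin.

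The 12 markers of the oligodendrocyte lineage also divided the libraries, with summed levels of 946 to 1023 CPM with DMSO, 1220 and 1685 CPM in libraries 4 and 5, and 765 CPM in library 6 (exact permutation p = 0.5). Of the 12, 6 had a positive and 6 a negative log2 change. With all 6 libraries edgeR called 0 of the 12. The largest log2 change of the list was that of the myelin gene Mobp, at 4.25 (edgeR adjusted p = 0.145). Mobp had 1.12, 0.689 and 1.09 CPM with DMSO and 22.3, 33.1 and 0.358 CPM with forskolin. Olig1 (log2 change -0.84, edgeR adjusted p = 0.0704) and Cspg4 (-0.66, edgeR adjusted p = 0.1004) were below every control in all 3 treated libraries, and Pdgfra (-0.20) overlapped. Of the 12, 3 were below every control in all treated libraries and 0 were above, as in 16.2% and 10.3% of all tested genes. Mobp, Olig1, Cspg4 and Pdgfra were chosen after their values were seen. The summed mural and fibroblast markers were 153 to 384 CPM with DMSO and 135 to 438 CPM with forskolin, and the astrocyte markers 7462 to 8197 and 7356 to 9013 CPM.

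Of the 10 Kruppel-like factors, Klf4 alone was called, as higher with forskolin. The test was edgeR's quasi-likelihood test with a Benjamini-Hochberg adjusted p-value under 0.05 over all tested genes. By that rule 0.172% of tested genes were called higher and 1.34% lower. Either way it was 1.51%. None of the 10 was called lower, and 3 had an unadjusted p under 0.05 (Klf4, Klf6 and Klf13), as did 22.3% of all tested genes. DESeq2 also called 1 of the 10 higher and 0 lower, against 4.89% and 5.98% of tested genes. In Klf4 and Klf6 all 3 treated libraries were above all 3 controls, as in 10.3% of tested genes. In Klf13 and Klf15 all 3 were below them, as in 16.2% of tested genes. The other 6 genes overlapped between the groups. The median log2 change of the 10 was 0.03, against 0.02 over all tested genes, with 5 positive and 5 negative.

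**Figure D1:**
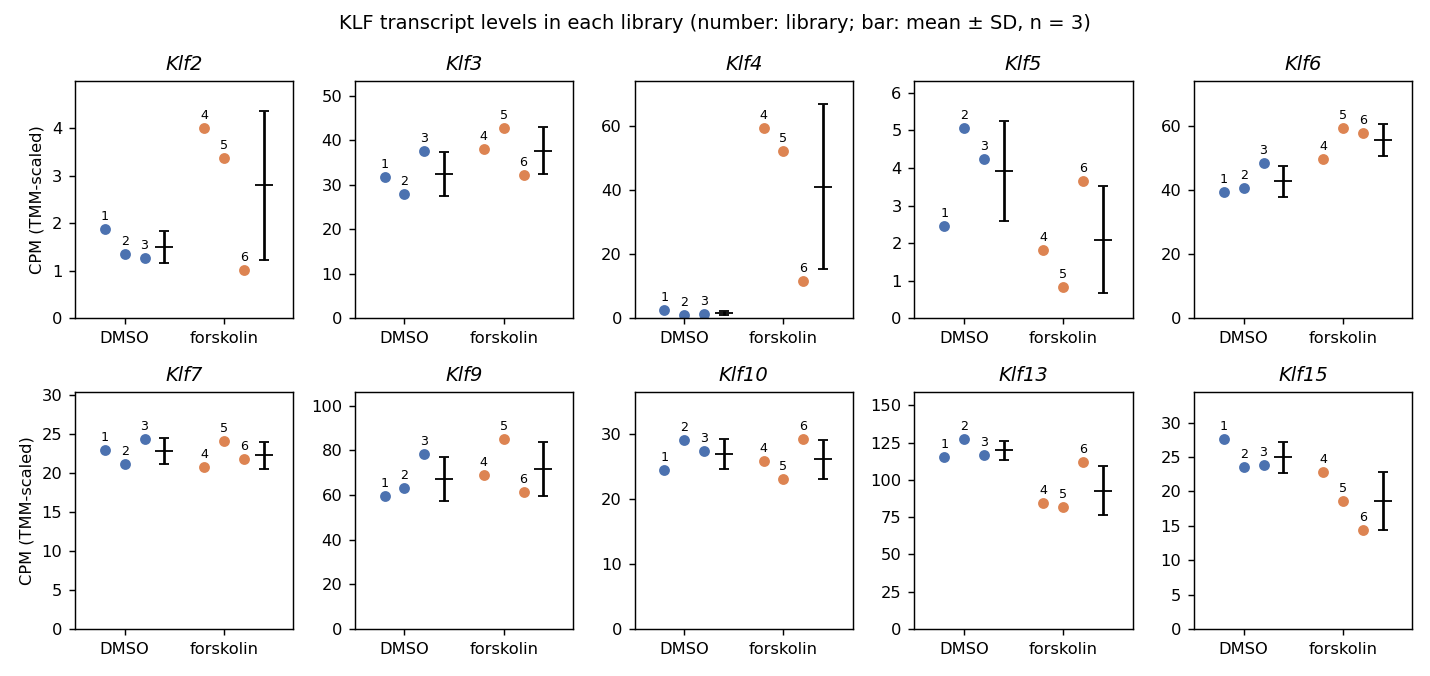
Level of each Kruppel-like factor in each library, in CPM on linear axes that start at 0; blue points are DMSO libraries 1 to 3, orange points are forskolin libraries 4 to 6, and black bars are the mean ± SD of 3 libraries. Klf4 rises from 1.15 to 2.44 CPM with DMSO to 11.6 to 59.3 CPM with forskolin, and most other panels overlap.

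Klf4 is one of the reprogramming factors of pluripotency, a restraint on axon growth in central neurons and a regulator of endothelial and myeloid cells. It is gene ENSMUSG00000003032.8, protein-coding, on the minus strand at chr4:55527143-55532466 (GRCm38). Its counts were 78, 35 and 44 with DMSO and 2791, 1778 and 389 with forskolin. In CPM this came to 2.44, 1.15 and 1.23 against 59.3, 52.2 and 11.6. Every treated library was thus above every control, with library 6 the lowest of the treated and library 1 the highest of the controls. Against the DMSO mean, libraries 4, 5 and 6 were 36.9, 32.5 and 7.23 times as high. The fitted log2 change (log2 of the fold change, forskolin over DMSO) was 4.67 ± 0.69 (SE, edgeR adjusted p = 0.0381), with a 95% interval from 3.04 to 6.31. By size of increase Klf4 ranked 27 among 16233 tested genes, and by p-value 121.

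Klf4 was also above the controls in library 6, whose microglia markers were at the DMSO level. Library 6 alone against the 3 DMSO libraries gave a log2 change of 2.89 ± 0.43 (SE, edgeR adjusted p = 0.0550), in a fit that takes the spread of that lone library to be like that of the controls. In that fit 0.0354% of tested genes were called higher and 0.519% lower, none of them a Kruppel-like factor. Its microglia marker sum, 25.6 CPM, lay within the DMSO range, and its endothelial and oligodendrocyte lineage sums, 21.3 and 765 CPM, lay below it. Divided by the microglia marker sum, Klf4 was 0.0452 to 0.0683 in the DMSO libraries, 0.241 and 0.129 in libraries 4 and 5, and 0.454 in library 6. In bulk RNA a change in the number of cells of a type and a change in RNA per cell cannot be told apart. The part of microglia, oligodendrocytes and endothelial cells in the higher Klf4 CPM of libraries 4 and 5 was not tested.

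The Klf4 call rested on the set of libraries. Without library 6 it held, with a log2 change of 5.10 (edgeR adjusted p = 0.00176; 16.5% of genes were then called higher). Without any other single library the adjusted p-value was 0.131 to 0.299 and the log2 change 4.31 to 5.11. In those 5 fits edgeR called 0 genes of any kind, with 1945 to 3216 showing an unadjusted p under 0.05. With the trend on GC content removed from each library, Klf4 had a log2 change of 4.84 (edgeR adjusted p = 0.163), and again 0 genes were called, with 1817 showing an unadjusted p under 0.05. DESeq2 gave 4.68 with an adjusted p-value of 6.4e-14.

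In the authors' deposited table Klf4 was the only one of the 10 Kruppel-like factors among 132 genes. The smallest log2 change in the authors' deposited table is 1.501, so that a gene with a smaller or negative change could not appear in it. The authors' deposited table ranks Klf4 1, with a log2 change of 4.01 ± 0.27 (SE) and an adjusted p-value of 3.27e-45. By log2 change Klf4 ranks 3 there. These values were not reproduced here. DESeq2 on the counts used here gave 4.68 ± 0.56 (SE, adjusted p = 6.4e-14). The authors' mean normalised count for Klf4 is 314.6. The Klf4 counts used here were 78, 35 and 44 with DMSO and 2791, 1778 and 389 with forskolin. The reason for the difference was not tested.

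**Figure D2:**
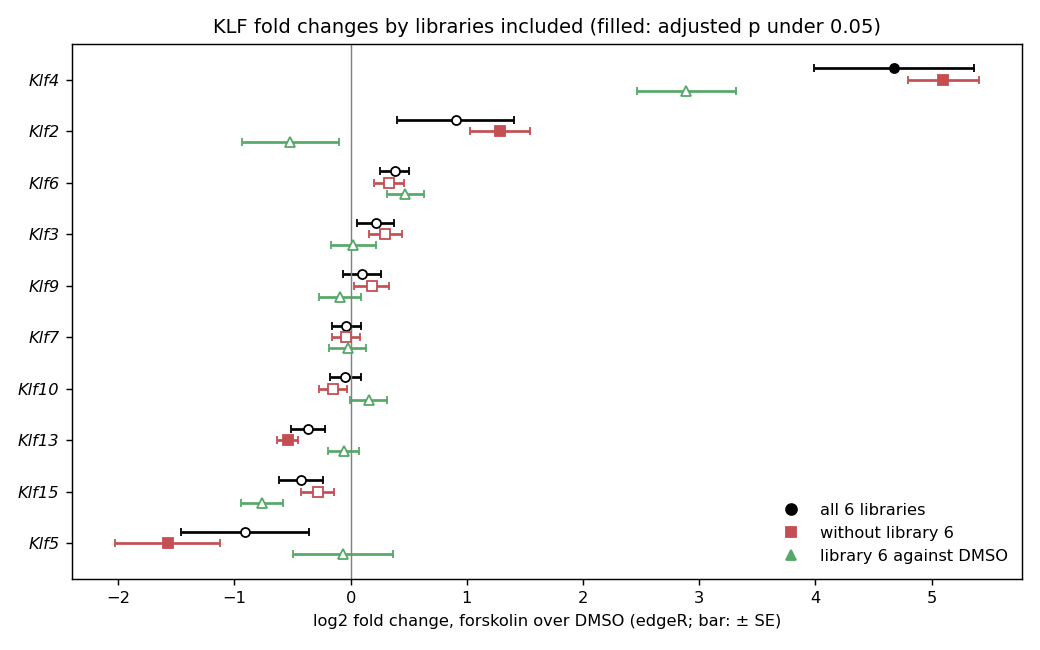
Log2 fold change of each Kruppel-like factor, forskolin over DMSO, from edgeR with all 6 libraries (black), without library 6 (red) and with library 6 alone against DMSO (green); bars are ± SE and filled symbols have an adjusted p-value under 0.05. Klf4 is at 2.89 or more in all 3 fits, whereas Klf2 changes sign, from 1.29 without library 6 to -0.52 with library 6 alone.

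The proximal promoter of Klf4 is shown because it belongs to the one family member called here. It is the 250 bases before the RefSeq start (GRCm38.p6, minus strand, chr4:55532476-55532725), written 5′ to 3′. Capitals mark the only match to TGACG or its reverse complement CGTCA, the core of the cyclic AMP response element (CRE) bound by CREB.
Klf4: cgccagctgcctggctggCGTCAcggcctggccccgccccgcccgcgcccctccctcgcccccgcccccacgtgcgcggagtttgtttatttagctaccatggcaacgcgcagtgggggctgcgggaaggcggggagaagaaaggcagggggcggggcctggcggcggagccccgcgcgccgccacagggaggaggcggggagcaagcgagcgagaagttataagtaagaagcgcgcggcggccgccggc

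The RefSeq table held promoter windows for 8 of the 10 genes (Klf2, Klf3, Klf4, Klf6, Klf7, Klf9, Klf13 and Klf15). Windows ran from 250 bases before to 50 bases after the start. On either strand, TGACG was found in 20.8% of all 32841 windows and in the windows of Klf2, Klf3, Klf4, Klf9, Klf13 and Klf15. It was not found in those of Klf6 and Klf7. The whole palindrome TGACGTCA, which contains the shorter motif, was in 1.8% of all windows and in none of the 8, and the CArG box bound by serum response factor was in 1.6% and in none of the 8. In Klf3 the match lies 19 bases after the start, and in the other 5 genes before it. The CRE core thus also stood in promoters of genes that were not called, of which 4 stretches are shown, with the match in capitals.
Klf2 (chr8:72318812-72318840, plus strand): ctggtttgtTGACGccgtcgccataggga
Klf9 (chr19:23141165-23141199, plus strand): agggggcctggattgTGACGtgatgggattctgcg
Klf13 (chr7:63938952-63938986, minus strand): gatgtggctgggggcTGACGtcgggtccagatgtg
Klf15 (chr6:90462483-90462517, plus strand): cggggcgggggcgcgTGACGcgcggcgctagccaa

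The promoters also held sequences of the kind that the family itself binds. GGGCGG, the GC box, was found 4 times in the Klf4 window and 6 times in that of Klf3, and at least once in every window but that of Klf9, against 35.7% of all windows with a match. CACCC was found in the windows of Klf2, Klf3, Klf7, Klf9, Klf13 and Klf15 and not in those of Klf4 and Klf6, against 57.5% of all. The 8 windows had a GC content of 58.3 to 76.7%. A match is a description of letters and no evidence of binding.

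**Figure D3:**
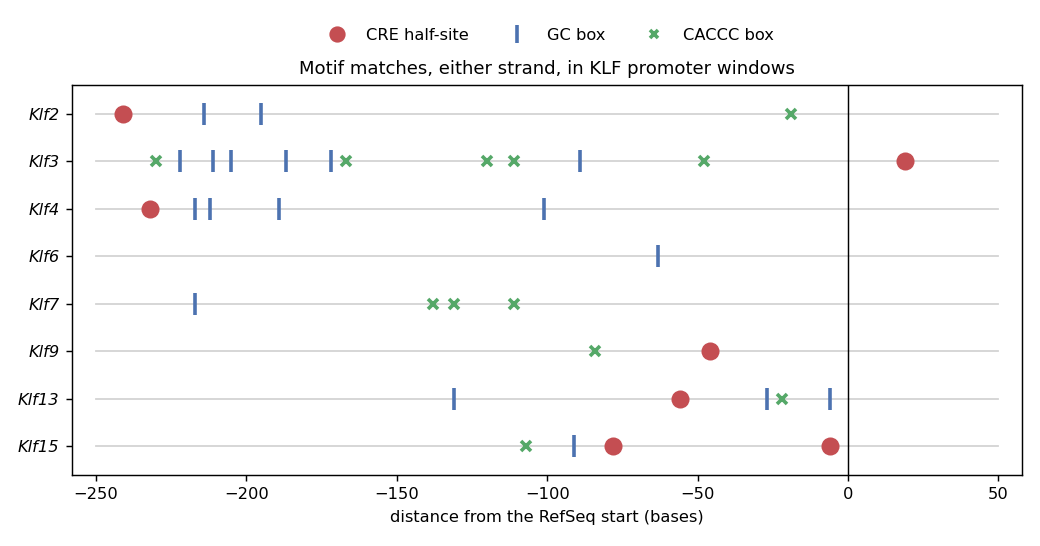
Matches to TGACG (red circles), GGGCGG (blue bars) and CACCC (green crosses) on either strand, by distance in bases from the RefSeq start, in the promoter windows of 8 Kruppel-like factors. The match to TGACG in Klf4 begins 232 bases before the start, and those of Klf9, Klf13 and Klf15 lie within 78 bases of it.

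Klf4 moved furthest in the order of the family by level, and Klf13 changed places too. Levels between genes were compared as CPM per kilobase of annotated exon. With DMSO, Klf13 was highest at 15.9 ± 0.862 CPM per kilobase (SD, n = 3), followed by Klf9 at 13.9 ± 2.05, with overlapping libraries. Klf6 (9.74 ± 1.11) and Klf15 (8.95 ± 0.815) came next and overlapped each other, and Klf10 followed at 6.45 ± 0.552. Klf3 (2.88 ± 0.439) and Klf7 (2.80 ± 0.199) overlapped. Klf2 (0.809 ± 0.180), Klf5 (0.753 ± 0.254) and Klf4 (0.527 ± 0.236) were the lowest, and each overlapped the next.

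With forskolin, Klf4 reached 19.4, 17.1 and 3.81 CPM per kilobase in libraries 4, 5 and 6. Its rank among the 10 went from 9, 10 and 10 in DMSO libraries 1, 2 and 3 to 1, 2 and 6 in forskolin libraries 4, 5 and 6. By the forskolin mean, Klf9 was highest at 14.9 ± 2.52 CPM per kilobase (SD, n = 3), followed by Klf4 at 13.5 ± 8.44, Klf6 at 12.7 ± 1.15 and Klf13 at 12.3 ± 2.22, all with overlapping libraries. In libraries 4 and 5 Klf13 stood at 11.2 and 10.9 CPM per kilobase, below Klf9 and Klf6, and in library 6 at 14.9, above both. As a share of reads, not corrected for length, Klf4 made up 0.742, 0.338 and 0.340% of the CPM of the 10 genes with DMSO. With forskolin it made up 15.8, 13.4 and 3.37%. The summed level of the other 9 overlapped between the groups, at 326, 339 and 362 CPM with DMSO and 317, 339 and 333 CPM with forskolin.

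**Figure D4:**
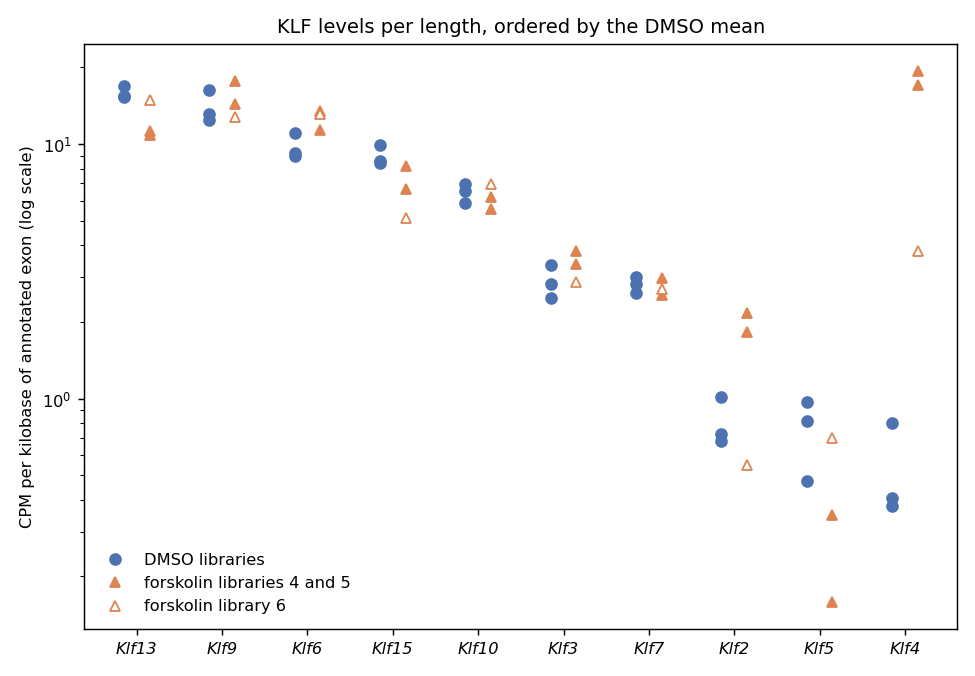
CPM per kilobase of annotated exon (log axis) of the 10 Kruppel-like factors, ordered by the DMSO mean; circles are DMSO libraries, filled triangles are forskolin libraries 4 and 5, and open triangles are forskolin library 6. Klf4, the lowest with DMSO at 0.377 to 0.799, lies at 3.81 to 19.4 with forskolin.

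Klf2, a close relative of Klf4, maintains quiescence in endothelium and T cells and is induced through ERK5 and MEF2. Its gene (chr8:72319033-72321656, GRCm38) gave few reads: 60, 41 and 45 counts with DMSO and 188, 115 and 34 with forskolin. In CPM the values were 1.87, 1.35 and 1.26 against 3.99, 3.38 and 1.02. Libraries 4 and 5 were above every control and library 6 was below every control. The microglia markers were likewise high in libraries 4 and 5, but their sum in library 6 lay within the DMSO range. With all 6 libraries the log2 change was 0.91 ± 0.50 (SE, edgeR adjusted p = 0.323), with a 95% interval from -0.29 to 2.10.

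Klf2 depended on which forskolin libraries were used. Without library 6 it was called higher, with a log2 change of 1.29 (edgeR adjusted p = 0.0136), in the fit that called 16.5% of tested genes higher. With library 6 alone against DMSO the log2 change was -0.52 (edgeR adjusted p = 0.563). Divided by the microglia marker sum, Klf2 was 0.0525 to 0.0542 in the DMSO libraries, 0.0163 and 0.00834 in libraries 4 and 5, and 0.0397 in library 6. The part of microglia, oligodendrocytes and endothelial cells in the higher Klf2 of libraries 4 and 5 was not tested. Klf4 and Klf2 thus differed in library 6, where Klf4 was 7.23 times and Klf2 0.680 times its DMSO mean; this difference within a single library has no replicate.

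**Figure D5:**
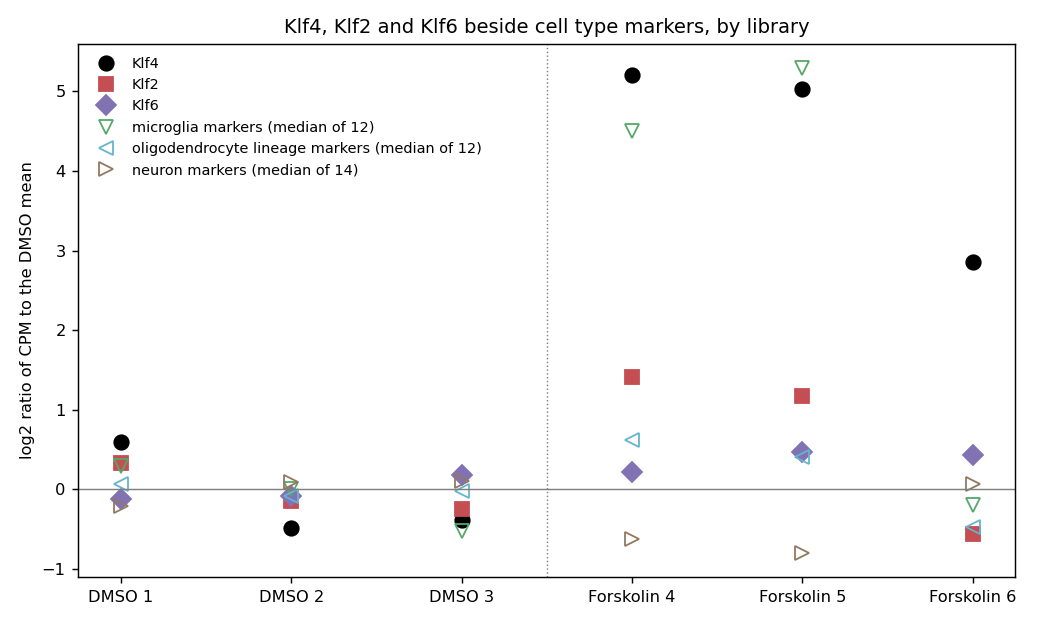
Log2 ratio to the DMSO mean, by library, of Klf4, Klf2 and Klf6 (filled symbols) and the median of 12 microglia, 12 oligodendrocyte lineage and 14 neuron markers (open symbols). In library 6 the microglia median is -0.20 and Klf2 is -0.56, while Klf4 is 2.85 and Klf6 is 0.43.

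Klf6 and Klf7 are paralogs that promote axon growth. Klf6 (chr13:5861482-5870394, GRCm38) had 39.4, 40.5 and 48.4 CPM with DMSO and 49.8, 59.2 and 57.8 CPM with forskolin. All 3 treated libraries were above the controls, by a narrow margin between libraries 3 and 4. The log2 change was 0.38 ± 0.13 (SE), but the edgeR adjusted p-value was 0.167, with a 95% interval from 0.08 to 0.68. It was 0.33 without library 6 and 0.47 with library 6 alone, and neither passed (edgeR adjusted p = 0.0940 and 0.263). With library quality weights in limma-voom, which gave library 6 a weight of 0.156 and the others 0.994 to 2.27, it passed, at 0.39 (adjusted p = 0.0319), where 21.0% of genes were called higher. The longest Klf6 transcript has a GC content of 42.4%, the lowest of the 10, and with the GC trend removed the log2 change was 0.10 (edgeR adjusted p = 0.623).

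Klf7 (chr1:64029447-64122282, GRCm38) had 23.0, 21.1 and 24.3 CPM with DMSO and 20.8, 24.1 and 21.8 CPM with forskolin. The groups interleaved. The log2 change was -0.04 ± 0.12 (SE, edgeR adjusted p = 0.880), with a 95% interval from -0.33 to 0.26.

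Klf9, Klf10 and Klf13 belong to the branch that recruits Sin3. Klf9 (chr19:23141226-23168134, GRCm38) is induced by thyroid hormone and glucocorticoids and takes part in the maturation of hippocampal granule neurons. It had 59.8, 63.2 and 78.3 CPM with DMSO and 69.1, 85.1 and 61.3 CPM with forskolin, with overlapping groups. The log2 change was 0.10 ± 0.17 (SE, edgeR adjusted p = 0.749), with a 95% interval from -0.30 to 0.49.

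Klf10 (chr15:38291463-38300706, GRCm38) is known as an early gene of TGF-beta signalling. It had 24.5, 29.0 and 27.4 CPM with DMSO and 25.9, 23.2 and 29.2 CPM with forskolin, again overlapping. Its log2 change was -0.05 ± 0.13 (SE, edgeR adjusted p = 0.857), with a 95% interval from -0.37 to 0.27. Over the 14 alternative fits the values of Klf7, Klf9 and Klf10 stayed between -0.18 and 0.22 and each changed sign in 3 of them.

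Klf13 (chr7:63886351-63938915, GRCm38), a regulator of chemokine expression in T cells, was the family member with the highest level per kilobase in the controls. It had 115, 127 and 117 CPM with DMSO and 84.5, 81.9 and 112 CPM with forskolin. All 3 treated libraries were below the controls, but library 6 was close to them. A log2 change of -0.37 ± 0.15 resulted (SE, edgeR adjusted p = 0.211), with a 95% interval from -0.72 to -0.02. Without library 6 it was called lower at -0.54 (edgeR adjusted p = 0.00784), where 17.1% of genes were called lower, and with library 6 alone it was -0.06. The quality weights, which are low for library 6 alone and so come close to leaving it out, gave -0.53 (limma-voom adjusted p = 0.00729; 20.9% of genes were called lower). With the GC trend removed it was -0.14 (edgeR adjusted p = 0.701). The summed neuron markers, 3684 and 3972 CPM in libraries 4 and 5 and 5893 CPM in library 6, divided the libraries in the same way, and their part in the Klf13 values was not tested.

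Klf15 (chr6:90462576-90475238, GRCm38), a glucocorticoid-induced regulator of gluconeogenesis and amino acid metabolism, showed another division. It had 27.6, 23.5 and 23.9 CPM with DMSO and 22.9, 18.6 and 14.3 CPM with forskolin. Here library 6 was the lowest of all, and library 4 was just below the controls. Its log2 change was -0.42 ± 0.19 (SE, edgeR adjusted p = 0.246), with a 95% interval from -0.88 to 0.03. It was negative in all 14 alternative fits, from -0.76 (library 6 alone against DMSO) to -0.24 (GC trend removed), and passed the threshold in 0 of them.

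Klf3 and Klf5 complete the set. Klf3 (chr5:64803388-64832901, GRCm38), a CtBP-dependent repressor, had 31.7, 27.9 and 37.7 CPM with DMSO and 38.1, 42.7 and 32.1 CPM with forskolin. Libraries 4 and 5 were above the controls and library 6 lay among them (log2 change 0.22 ± 0.16 (SE), edgeR adjusted p = 0.448). Klf5 (chr14:99298691-99315036, GRCm38), a driver of proliferation in epithelia, was a low gene with 79, 154 and 151 counts with DMSO and 85, 28 and 122 with forskolin.

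In CPM, Klf5 stood at 2.47, 5.05 and 4.24 with DMSO and 1.81, 0.823 and 3.64 with forskolin. Libraries 4 and 5 were below every control and library 6 lay within their range. Its log2 change was -0.91 ± 0.55 (SE, edgeR adjusted p = 0.358), with a 95% interval from -2.21 to 0.40. Without library 6 it was called lower, at -1.57 (edgeR adjusted p = 0.0391), in the fit that called 17.1% of tested genes lower, and with library 6 alone it was -0.07 (edgeR adjusted p = 0.947).

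The genes whose levels most resembled that of Klf4 over the 6 libraries were E130317F20Rik, Snx6, Fos, Maff and Atf3. Pearson correlations of log2 CPM with Klf4 were 0.999, 0.995, 0.993, 0.992 and 0.991. They are over 6 libraries that share the 2 treatments and the division of library 6 from libraries 4 and 5, and the genes were picked from all tested genes outside the family with a mean of at least 1 CPM. Fos and Atf3 are early response genes of the AP-1 and ATF families, Maff is a small Maf factor and Snx6 is a sorting nexin. The sizes of their changes differed widely. The log2 change was 0.57 for E130317F20Rik and 0.32 for Snx6, and neither was called (edgeR adjusted p = 0.135 and 0.154). It was 2.46 for Fos and 3.71 for Maff, both called, and 2.12 for Atf3 (edgeR adjusted p = 0.0598).

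The rest of the family and the related Sp factors gave no call in edgeR with all 6 libraries. Of 7 other Kruppel-like factor genes, 5 were tested, and 0 were called higher or lower by edgeR, with 1 showing an unadjusted p under 0.05. Klf17 had 0 counts in every library, and Klf1 was under the low-count limit. The lowest p-value belonged to Klf16, at 29.4 ± 1.78 CPM with DMSO and 20.9 ± 3.14 CPM with forskolin (SD, n = 3; log2 change -0.49, edgeR adjusted p = 0.140). Klf14 (-0.94, edgeR adjusted p = 0.367) and Klf12 (-0.06, edgeR adjusted p = 0.874) followed. Klf14 had only 2 to 14 counts per library. Of 9 Sp factors, 6 were tested and 0 called, with 2 showing an unadjusted p under 0.05. These were Sp9 (log2 change -1.39, edgeR adjusted p = 0.123) and Sp3 (0.68, edgeR adjusted p = 0.197), and the next, Sp1, stood at 0.34. The share of all tested genes with such a p, 22.3%, is the background for these and the following counts of unadjusted p-values. DESeq2 called 0 of the other Kruppel-like factors and 1 Sp factor, as lower (5.98% of all tested genes were called lower). With quality weights limma-voom called 2 of the other Kruppel-like factors lower, 2 Sp factors higher and 1 lower, where 21.0% of all tested genes were called higher and 20.9% lower.

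Of 14 cofactors that Kruppel-like factors recruit or that control their stability, edgeR called 0, with 5 showing an unadjusted p under 0.05 (22.3% of all tested genes) and a median log2 change of 0.02. The corepressor Ctbp1, at 176 ± 6.80 CPM with DMSO and 127 ± 15.4 CPM with forskolin (SD, n = 3), had the lowest p-value (log2 change -0.48, edgeR adjusted p = 0.121). The acetyltransferase Kat2b (0.84, edgeR adjusted p = 0.144) and the repressor Zbtb16 (-0.46, edgeR adjusted p = 0.154) came next. DESeq2 called 2 of the 14 higher and 1 lower, against 4.89% and 5.98% of all tested genes. With quality weights limma-voom called 3 higher and 3 lower, against 21.0% and 20.9%.

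Among 16 genes upstream of the family, comprising the ERK5 and MEF2 pathway, CREB with its coactivators and hormone receptors, edgeR called 0 higher and 1 lower (0.172% and 1.34% of all tested genes). The lower one was Crtc1, a CREB coactivator, with 51.6, 54.0 and 54.8 CPM with DMSO and 36.4, 38.3 and 34.2 CPM with forskolin. The groups did not overlap, and library 6 was here as low as libraries 4 and 5 (log2 change -0.56 ± 0.10 (SE), edgeR adjusted p = 0.0482). The call was lost with RLE factors, without a low-count filter, with a mean count of at least 50, with the GC trend removed, with library 6 alone and without any single library other than 6: edgeR then called 0 of the 16. DESeq2 called 0 higher and 4 lower, against 4.89% and 5.98% of all tested genes. The counts were 2 and 5 in limma-voom with quality weights, against 21.0% and 20.9%, and 0 and 5 in edgeR without library 6, against 16.5% and 17.1%. The median log2 change of the 16 was -0.05, and 6 showed an unadjusted p under 0.05 (22.3% of all tested genes). In 5 of the 16 all treated libraries were below every control, and in 1 they were above. These patterns held in 16.2% and 10.3% of all tested genes.

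Lists of genes downstream of the family, or known to share its inducers, showed no calls in edgeR with all 6 libraries. Of 10 glucocorticoid targets edgeR called 0, with 1 showing an unadjusted p under 0.05 and a median log2 change of 0.15. Ddit4 (-0.49), Zfp36l2 (0.70) and Sgk1 (0.20) had the lowest p-values (edgeR adjusted p = 0.189, 0.230 and 0.336). Of 8 endothelial targets of Klf2 and Klf4, 6 were tested and edgeR called 0, with 1 showing an unadjusted p under 0.05. The median log2 change of the 6 was 0.61, with 6 positive and 0 negative. The adhesion molecule Vcam1 had 63.6 ± 6.73 CPM with DMSO and 102 ± 33.4 CPM with forskolin (SD, n = 3; log2 change 0.68, edgeR adjusted p = 0.182). Cav1 followed, with a log2 change of 0.60. Thbd came next at 0.93, which rested on library 4: it was 4.51 times the DMSO mean there, and 0.617 and 0.552 times in libraries 5 and 6. DESeq2 called 0 genes of either list. With quality weights limma-voom called 3 glucocorticoid targets higher and 1 lower, and 2 endothelial targets higher, against 21.0% and 20.9% of all tested genes called higher and lower.

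Of 10 genes of axon growth, 9 were tested and edgeR called 0, with 4 showing an unadjusted p under 0.05. The median log2 change of the 9 was -0.37, with 3 positive and 6 negative. DESeq2 called 2 higher and 2 lower, against 4.89% and 5.98% of all tested genes, and limma-voom with quality weights 3 and 5, against 21.0% and 20.9%. Without a low-count filter edgeR called 1 higher and 0 lower, against 0.173% and 0.623%. Atf3, a stress and injury response factor, had 8.81, 4.59 and 5.61 CPM with DMSO and 31.5, 36.2 and 15.02 CPM with forskolin, with no overlap. The growth cone protein Basp1 (log2 change -0.88, edgeR adjusted p = 0.0935) and the stathmin Stmn3 (-0.85, edgeR adjusted p = 0.104) were next. Basp1 had 432, 530 and 542 CPM with DMSO and 215, 255 and 344 CPM with forskolin, and Stmn3 had 438, 513 and 472 against 228, 215 and 346 CPM. Both were below every control in all 3 treated libraries. The summed neuron markers were lower in libraries 4 and 5 and 1.04 times the DMSO mean in library 6, and their part in these values was not tested.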

How the data were processed

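RNA of 6 samples of cultured hippocampal neurons, 3 per group, was isolated with Trizol/chloroform for Illumina sequencing, as the labels' protocols state. The authors deposited raw counts per gene symbol. The submitters' processing notes name Salmon, DESeq and GRCm38, without roles or versions; the strand setting is not given in the sources used here. The authors' deposited results table has the log2 fold changes with SEs, the mean signal (normalised counts), the statistic (a score) and raw and adjusted p-values, per the file headers. Its ranks reach 1224, so that its 132 genes are part of a longer table.

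Genes were kept with filterByExpr (minimum count 10, minimum total 15), scaled with TMM factors and tested with glmQLFTest in edgeR 4.0.16 (R 4.3.3), with group as the only term and Benjamini-Hochberg adjustment over 16233 genes. SEs are the size of the log2 change over the root of F, and intervals are at the 95% level. The calculation was tested on simulated counts with the same spread for every gene and no outlying library. That test gives no error rate for these data. Alternatives used DESeq2 1.42.0, limma 3.58.1, other scalings and filters, GC correction and left-out libraries. GENCODE M21 (GRCm38) gave coordinates, exon length and the GC content of the longest transcript, matched by symbol for 36083 rows (96.5%). Promoters came from RefSeq (GRCm38.p6).

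The members and gene lists were chosen with earlier results of these data known. All 10 members are named. Of other lists, genes past the threshold are named, or else up to 3 with the lowest p-values, or the highest levels for markers; Cldn5, Pecam1, Egfl7, Cdh5, Mobp, Olig1, Cspg4 and Pdgfra were chosen after their values were seen. For likeness the rule took the 5 highest Pearson correlations with Klf4. Lists of markers for mural cells and fibroblasts, astrocytes and the oligodendrocyte lineage were also summed: edgeR called 0 of 8, 0 of 12 and 0 of 12 tested, with 0, 3 and 8 showing an unadjusted p under 0.05 (22.3% of all tested genes). For endothelium it was 0 of 6 with 2, and for neurons 1 of 14 with 5 (Rbfox3, lower, as were 1.34% of tested genes). The neuron count was 0 with RLE factors, with the GC trend removed and without any single library other than 6. It was 2 with library size alone, 8 with quality weights and 7 without library 6 (1.82%, 20.9% and 17.1% of all tested genes were called lower). Without library 6 edgeR called 6 oligodendrocyte lineage, 2 astrocyte and 2 endothelial markers higher, and 2, 2 and 1 lower. In that fit 16.5% and 17.1% of all tested genes were called higher and lower. DESeq2 called 0 mural and fibroblast markers, 1 astrocyte marker lower, 4 oligodendrocyte lineage markers higher and 2 lower, 1 endothelial marker higher and 1 lower, and 3 neuron markers lower, against 4.89% higher and 5.98% lower of all tested genes.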

Additional observations from a re-analysis of the deposited data

How the results depend on the processing

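No paired analysis was possible because the libraries are numbered 1 to 6 across both groups and share no number. Over 14 alternatives Klf4 kept its direction in all and passed the threshold in 7, with log2 fold changes from 2.89 to 5.19. The count of all called genes, 245, was 1765 with DESeq2, 6795 with quality weights, 137 with RLE factors, 0 with the GC trend removed, and 94 with library 6 alone against DMSO; leaving out single libraries gave 0 to 5698, the highest without library 6. Higher calls were 11.4% of all calls with TMM factors, 45.0% with DESeq2, 50.1% with quality weights and 49.1% without library 6. The count of Kruppel-like factors called higher, 1, was 3 with quality weights (Klf2, Klf4 and Klf6), 0 with the GC trend removed and 0 with library 6 alone, and 0 to 2 without single libraries. The count called lower, 0, was 2 with quality weights (Klf5 and Klf13) and 0 to 2 without single libraries. Signs reversed for Klf2 with library 6 alone (-0.52). For Klf7 they reversed with quality weights (0.0091) and without library 3 or 4, with values from -0.0704 to 0.0097 without single libraries. For Klf9 they reversed with library size alone (-0.0087), with library 6 alone (-0.0914) and without library 5, with values from -0.0066 to 0.212 without single libraries. For Klf10 they reversed with library 6 alone (0.155) and without library 2 or 5, with values from -0.152 to 0.0673 without single libraries. The cause was not tested. Without TMM factors the median over all tested genes went from 0.02 to -0.09. With the GC trend removed Klf2 was at 1.45 (edgeR adjusted p = 0.357). Klf2 and Klf5 had 28 to 188 reads per library, and Klf4 had 35 to 78 with DMSO.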
